A study of Mus musculus with 9 samples.

Results

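The binding of PPARγ (peroxisome proliferator-activated receptor γ) to the genome of interscapular brown fat was compared between the hours around lights off and the hours around lights on. The comparison covered 66066 of the 66066 peaks in the deposited count table and 6 of the 8 libraries with a column in it. The paper kept peaks that were significant in at least 6 of 8 samples, and it reports this same number of peaks. Sites bound at only a few times of day could therefore be missing from the comparison. The libraries of ZT9, ZT12 and ZT15 made up the dusk side, and those of ZT21, ZT0 and ZT3 the dawn side, where ZT is the zeitgeber time in hours since lights on and the light goes off at ZT12. ZT9 therefore still lies in the light and ZT21 still in the dark. The remaining columns, of ZT6 and ZT18, were not used. A rhythm highest near either of these times would largely cancel between the sides. A peak that was not called is therefore not shown to be level over the day. All libraries came from male C57BL/6J mice of 10 weeks on chow, kept at room temperature and not fasted. Each is a chromatin immunoprecipitation with 1 antibody against PPARγ, from brown fat pooled over several mice, so that 1 pool stands for 1 time of day. The 3 neighbouring times of a side stood in for replicates, and their spread holds time of day and pool together.

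PPARγ is the nuclear receptor without which fat cells do not form. It binds DNA as a pair with a retinoid X receptor, in the textbook case at a direct repeat of the letters AGGTCA with 1 base between them (DR1), and its targets include genes of fatty acid uptake, triglyceride storage and heat production. The cellular clock runs beside it. BMAL1 (gene Arntl) with CLOCK or NPAS2 drives the genes of their own repressors (Per, Cry, Ciart, Nr1d1) through E-boxes. DBP, TEF and HLF act through D-boxes, where NFIL3 opposes them, and the ROR receptors act through ROR elements, where the REV-ERB receptors (Nr1d1, Nr1d2) repress. E-boxes, D-boxes and ROR elements are read at different times of day.

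PPARγ binding was higher around dusk at 532 peaks and higher around dawn at 159 (edgeR quasi-likelihood test, adjusted p below 0.05 over 66066 peaks, 3 libraries a side). These are 0.805% and 0.241% of the peaks tested, or 1.05% for both directions together. At an unadjusted p below 0.05 there were 8116 peaks (12.3%). The difference was between 1.35-fold and 4.06-fold at the dusk-higher peaks, with a median of 1.84-fold, and between 1.34-fold and 3.63-fold at the dawn-higher peaks, with a median of 1.78-fold. It reached at least 2-fold at 165 and 42 of them. At all 691 called peaks the lowest library of the higher side lay above the highest library of the other, which also held for 17.4% of all peaks. The median log2 difference (dusk minus dawn) over all peaks was -0.01, which the scaling of the libraries holds near 0, so a change of binding over the whole genome would not be seen here. The smallest adjusted p was 0.000986, and the peaks just inside the threshold (adjusted p of 0.04 to 0.05, 164 peaks) had a median log2 size of 0.75 against 0.70 for the 119 just outside it (0.05 to 0.06).

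**Figure D1:**
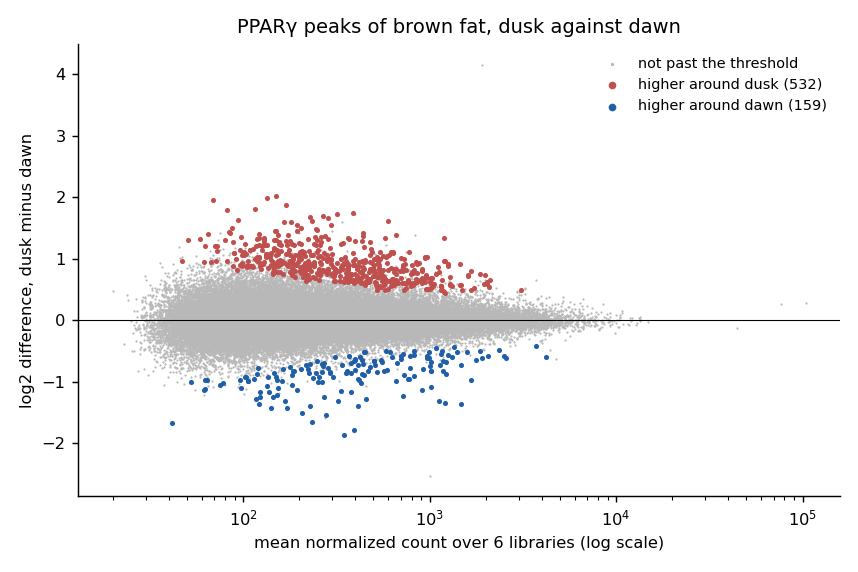
Log2 difference in PPARγ binding (dusk minus dawn, vertical axis) against the mean normalized count over the 6 libraries (horizontal log axis), 1 point per peak. The 532 dusk-higher peaks (red) and 159 dawn-higher peaks (blue) lie along the edges of a cloud whose median is -0.01.

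The count of called peaks rested on single libraries. Without the ZT12 library 59 peaks were called higher around dusk and 17 around dawn. Without ZT0 the counts were 127 and 34, and without ZT21 they were 150 and 26. Without ZT3 they were 246 and 165. Leaving out ZT9 (545 and 116) or ZT15 (463 and 174) moved neither count by more than 1.5 times. It also rested on the model, with 1223 and 410 peaks by the DESeq2 Wald test, 277 and 90 with the hours from the change of light as a covariate, and 202 and 60 with those hours as a block.

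The sequence under the peaks differed between the sets. A D-box, searched as TTATGTAA on both strands of the central 300 bases, was found in 132 of 532 dusk-higher peaks (24.8%), in 0 of 159 dawn-higher peaks and in 2.13% of all peaks. A ROR element, searched as AANTAGGTCA on both strands, was found in 17 of 159 dawn-higher peaks (10.7%), in 0 of 532 dusk-higher peaks and in 0.665% of all peaks. That share rested on few peaks when a library was left out, with 1 of 26 dawn-higher peaks (3.85%) without ZT21, 1 of 17 (5.88%) without ZT12 and 2 of 34 (5.88%) without ZT0. A match is a run of letters, not a shown site of binding. The ROR element ends in the letters that DR1 repeats, and the D-box shares no such run with either. The following stretches, from the RefSeq genome of build GRCm38.p6, carry the D-box in capitals in the dusk-higher peaks of lowest p that hold one. They lie in intron 2 of Mrps21 (chr3:95865120-95865159), in intron 22 of Pard3 (chr8:127480100-127480139), upstream of Iqgap2 (chr13:95935542-95935581) and in intron 3 of Sox5 (chr6:144070665-144070704), all on the forward strand.
Mrps21: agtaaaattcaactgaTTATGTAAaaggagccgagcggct
Pard3: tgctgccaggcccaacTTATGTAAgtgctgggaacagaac
Iqgap2: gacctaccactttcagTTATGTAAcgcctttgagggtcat
Sox5: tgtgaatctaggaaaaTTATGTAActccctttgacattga
The window of the Mrps21 peak held 2 D-boxes, of which the stretch shows 1. The peak in intron 49 of Itpr1 also held 2 D-boxes, the first of them on the reverse strand. Its window of 300 bases is shown whole because it is the D-box peak of lowest p (chr6:108486801-108487100, forward strand).
Itpr1 intron 49: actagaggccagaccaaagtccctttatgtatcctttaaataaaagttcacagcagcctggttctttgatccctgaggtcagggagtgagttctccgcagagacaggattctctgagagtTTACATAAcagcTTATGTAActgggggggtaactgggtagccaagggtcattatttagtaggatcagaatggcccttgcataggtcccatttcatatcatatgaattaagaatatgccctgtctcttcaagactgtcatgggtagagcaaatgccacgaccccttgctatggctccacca

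The dawn-higher peaks of lowest p with a ROR element are shown in the same way, with the element in capitals. They lie in intron 8 of Dnajc1 (chr2:18265894-18265930, reverse strand), upstream of Triqk (chr4:12763113-12763154, forward), upstream of 5730409E04Rik (chr4:126604273-126604314, forward) and in the interval nearest to BC006965 (chr11:112219211-112219252, forward).
Dnajc1: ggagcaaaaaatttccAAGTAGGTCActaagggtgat
Triqk: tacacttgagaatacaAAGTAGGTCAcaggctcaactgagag
5730409E04Rik: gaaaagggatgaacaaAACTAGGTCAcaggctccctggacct
BC006965: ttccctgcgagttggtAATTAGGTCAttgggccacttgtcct
The window upstream of Iyd (chr10:3516419-3516718, reverse strand) is shown whole because it held 3 copies of the element, the most among these peaks, in a tandem repeat.
Iyd: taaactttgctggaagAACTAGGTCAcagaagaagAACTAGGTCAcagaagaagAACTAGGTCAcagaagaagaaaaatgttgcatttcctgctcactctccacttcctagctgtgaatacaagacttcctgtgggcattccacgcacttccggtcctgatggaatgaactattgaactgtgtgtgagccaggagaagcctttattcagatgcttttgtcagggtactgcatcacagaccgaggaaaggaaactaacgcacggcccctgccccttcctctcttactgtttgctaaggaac

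D-box matches gathered at the centre of the dusk-higher peaks. Within 100 bases on either side of the centre there were 0.959 and 0.996 matches per kb of sequence, against 0.0816 and 0.0769 over all peaks. Farther out, 500 to 600 bases from the centre, the dusk-higher peaks had 0.207 matches per kb on one side and 0.094 on the other. These outer bins hold 11 and 5 matches, and all peaks had 0.045 and 0.0401 matches per kb there. The ROR element showed the same form in the dawn-higher peaks, with 0.44 and 0.377 matches per kb within 100 bases of the centre against 0.0283 and 0.0223 over all peaks. Those bins hold 7 and 6 matches.

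**Figure D2:**
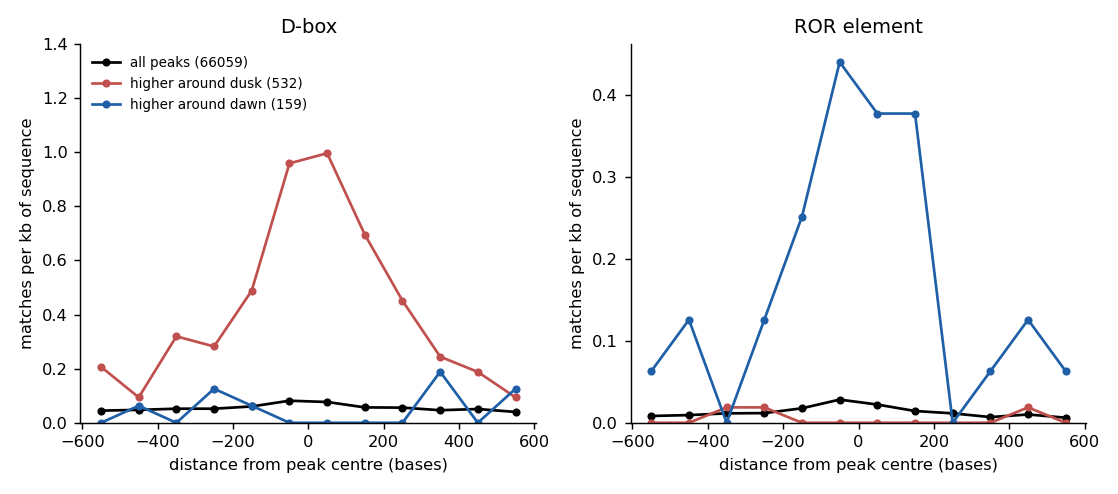
Matches to the D-box (left) and to the ROR element (right) per kb of sequence, in bins of 100 bases by distance from the peak centre, for all peaks (black), dusk-higher peaks (red) and dawn-higher peaks (blue). The red curve rises to 0.996 per kb at the centre for the D-box and the blue curve to 0.44 per kb for the ROR element, while the black curves stay at or below 0.0816.

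Peaks grouped by motif alone, without regard to the test, had median differences in the same directions. Of the 1409 peaks with a D-box, 1204 (85.5%) had a log2 difference above 0, against 48.1% of all peaks, and their median log2 difference was 0.33. Of the 439 peaks with a ROR element, 102 (23.2%) lay above 0, with a median of -0.17. Relative to each peak's own mean over the 6 libraries, the D-box peaks had median log2 levels of 0.08 at ZT9, 0.21 at ZT12 and 0.22 at ZT15. On the dawn side the same medians were -0.10 at ZT21, -0.13 at ZT0 and -0.27 at ZT3. The 3 dusk libraries were thus all above the 3 dawn libraries, with the greatest gap between ZT15 and ZT3. The ROR element peaks stood at -0.07, -0.10 and -0.09 at ZT9, ZT12 and ZT15, and at 0.09, 0.09 and 0.07 at ZT21, ZT0 and ZT3. These are medians over peaks and carry no test.

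**Figure D3:**
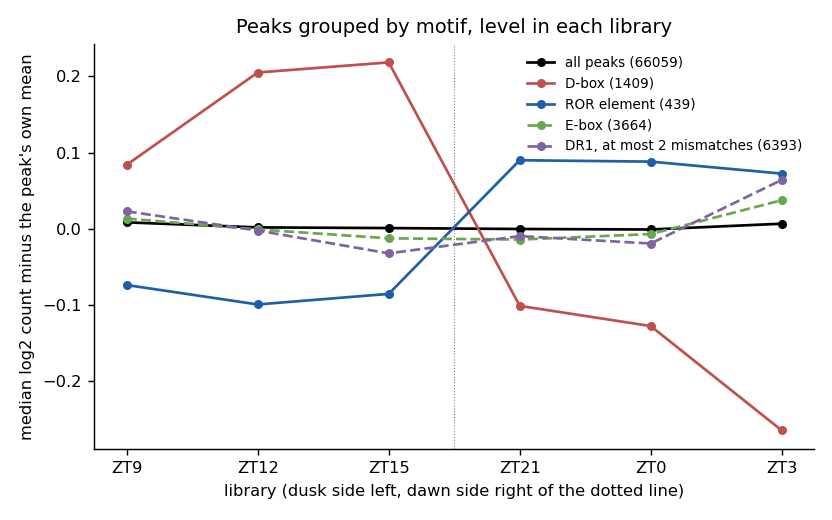
Median over peaks of the log2 normalized count minus the peak's own mean (vertical axis) in each of the 6 libraries, for peaks with a D-box, a ROR element, an E-box or a DR1 and for all peaks (numbers of peaks in brackets). The D-box line falls from 0.22 at ZT15 to -0.27 at ZT3, the ROR element line lies below 0 on the dusk side and above it on the dawn side, and all peaks stay near 0.

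E-boxes and DR1 differed less between the sets. E-boxes (CACGTG) were found in 4.51% of the dusk-higher and 3.14% of the dawn-higher peaks, against 5.55% of all peaks. DR1, searched as AGGTCANAGGTCA with at most 1 mismatch, was found in 1.13%, 2.52% and 2.05%. The element of the glucocorticoid receptor (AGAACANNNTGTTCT, at most 1 mismatch) was found in 6 dusk-higher peaks (1.13%), in 0 dawn-higher peaks and in 0.248% of all. The EBF motif (TCCCNNGGGA), that of a factor family of brown fat cells, was found in 1.88% of dusk-higher, 0 of 159 dawn-higher and 2.16% of all peaks. Those of C/EBP (TTGCGCAA), CREB (TGACGTCA) and NF1 (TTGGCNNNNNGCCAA) were each found in at most 1 peak of each set. Among all peaks with a motif, 69.5% of the 164 with the glucocorticoid element lay above 0 (median log2 difference 0.17). The share was 27% of the 137 with the C/EBP motif (-0.10), 30.8% of the 406 with the CREB motif (-0.07), 43.5% of the 1355 with DR1 (-0.03) and 47.7% of the 3664 with an E-box (-0.01), against 48.1% of all peaks.

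The called peaks sat away from gene starts. Among them, 15 dusk-higher peaks (2.82%) and 6 dawn-higher peaks (3.77%) lay within 1 kb of a start site, against 15.7% of all peaks. The median distance to the nearest start site was 28782 bases for dusk-higher, 35581 bases for dawn-higher and 18504 bases for all peaks. Introns held 52.6% of the dusk-higher and 47.8% of the dawn-higher peaks, against 45.2% of all. The called peaks were also wider and stronger than the rest, with median widths of 1078 and 1180 bases against 813 and median normalized counts of 308 and 400.1 against 224.7. The central 300 bases of the dusk-higher peaks had a median GC share of 45%, those of the dawn-higher 47% and those of all peaks 48%. The D-box is rich in A and T, and of 5 groups of 12670 to 13581 peaks by GC share it was found in 4.83% of the lowest and in 0.3% of the highest. The median log2 difference was 0.04 in the lowest of these groups and -0.06 in the highest. The part of base composition in the shares of motifs was not tested beyond these values.

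By size, the leading dusk-higher peak lay 60.5 kb from the start of Rragc, which encodes a GTPase of the amino acid branch of mTORC1 signalling (chr4:123977651-123978173, intergenic). Its normalized counts were 200.3, 323.9 and 194.2 at ZT9, ZT12 and ZT15 and 66.9, 67.9 and 42.2 at ZT21, ZT0 and ZT3. Every dusk library lay far above every dawn library, a difference of 4.06-fold (log2 2.02 ± 0.25 SE, adjusted p = 0.00484), and the window held a D-box and a match to the glucocorticoid element. The lowest p belonged to a peak in intron 8 of Snrnp40, a spliceosome protein (chr4:130386636-130388029). It had 906.3, 961.5 and 828.5 counts on the dusk side and 330.2, 259.2 and 294.2 on the dawn side (log2 1.61 ± 0.12, adjusted p = 0.000986). The peak in intron 49 of Itpr1, the calcium channel of the endoplasmic reticulum, had 250.9, 278.7 and 272.9 counts around dusk and 81.3, 78.2 and 59.4 around dawn (log2 1.88 ± 0.17, adjusted p = 0.00266). Within each side its libraries differed little, and its nearest start site was that of Mir7661.

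The other dusk-higher peaks of largest size were at Shisa6 (log2 1.98), Rspo3 (1.80), Ugt2a1 (1.75), Slc25a33 (1.72), Arl15 (1.69), Cstf3 (1.68) and in intron 13 of Dym (1.67). Rspo3 encodes a secreted enhancer of Wnt signalling and Slc25a33 a mitochondrial carrier of pyrimidine nucleotides. At Slc25a33 the counts were 427.4, 582 and 466.2 around dusk and 195.5, 126.5 and 125.5 around dawn. The Ugt2a1 peak had the widest spread of these, with 288.5, 976.9 and 524.5 against 228.4, 191.3 and 113.1. Its adjusted p was 0.0452, the call held in 4 of 13 alternative fits, and its ZT9 library stood nearer to the dawn libraries than to ZT12. By p, the remaining leading peaks were at Mrps21 (log2 1.28), Tsku (1.33), Pard3 (1.10), Iqgap2 (1.30), Sh2d4a (1.59), Mapkapk5 (1.46), Tsc22d3 (1.11) and Masp2 (1.10). Of the 18 peaks that size or p put forward on the dusk side, 7 held a D-box.

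Around dawn the leading signal lay at Npas2, the gene of a partner of BMAL1. Of 14 peaks between chr1:39025077 and chr1:39394501, a stretch of 369 kb that runs from the neighbour Pdcl3 across Npas2 toward Rpl31, 12 were higher around dawn. The largest difference of the dawn side was in intron 2 of Npas2 (chr1:39267400-39268861), where the counts were 154.7, 140.9 and 155.4 at ZT9, ZT12 and ZT15 and 529.8, 710.6 and 399.6 at ZT21, ZT0 and ZT3. The dusk libraries hardly varied and the dawn libraries varied widely, with a difference of 3.63-fold (log2 -1.86 ± 0.19, adjusted p = 0.00266). The peak at the Npas2 start site (chr1:39192309-39194709) had 858.7, 844.3 and 766.3 counts around dusk and 2349, 2465 and 1572 around dawn, 2.59-fold more (log2 -1.37 ± 0.15, adjusted p = 0.0039). The remaining Npas2 peak, 2.8 kb upstream, was 2.91-fold higher around dawn (log2 -1.54 ± 0.22, adjusted p = 0.00912).

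The other called peaks of the stretch lay before the gene, in its introns and beyond it. The called peaks toward Pdcl3 had log2 differences of -1.51, -1.32, -1.32, -0.93 and -1.28 at 169, 115, 108, 91.2 and 88.1 kb before the start site. Those nearest to the start of Rpl31 had -1.14, -0.87, -0.91 and -0.86 at 94, 109, 124 and 200 kb beyond the Npas2 start site. The first 3 of these lay in introns of Npas2 and the last in an intron of Tbc1d8. A pair of peaks between them, 174 and 175 kb beyond the start site, had log2 differences of -0.06 and -0.08 (adjusted p = 0.888 and 0.872), so that the run was not unbroken. The outermost called peaks of the stretch on either side held a ROR element. Without ZT0, without ZT21 or without ZT12 the number of called peaks in the stretch was 5. This stretch was singled out after its values were seen, as the run with the most called peaks of 1 direction and gaps of at most 200 kb.

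**Figure D4:**
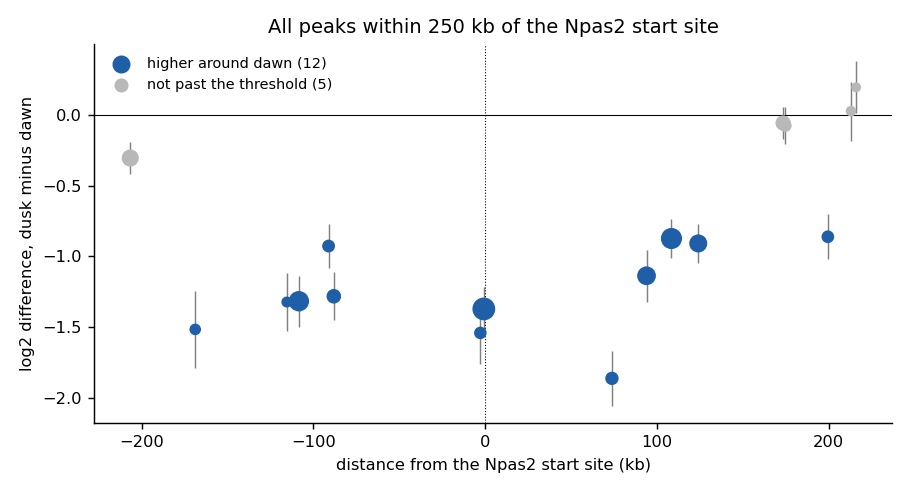
Log2 difference (dusk minus dawn, with its standard error as bars) of all 17 peaks within 250 kb of the Npas2 start site, by distance from it in kb; point size grows with the mean count. The 12 peaks higher around dawn (blue) run from -169 to 200 kb, with differences from -1.86 to -0.86, and 5 peaks (grey) did not pass the threshold.

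By the same rule there were 7 such runs of at least 3 peaks higher around dawn, with 37 peaks, and 16 higher around dusk, with 54 peaks. Each stretch, that at Npas2 included, begins and ends at a called peak. The rule itself thus raises its called share, which cannot be set against the 0.241% (dawn) and 0.805% (dusk) of all peaks. At Triqk 5 of 9 peaks in 207 kb were higher around dawn, or 5 of the 14 peaks assigned to the gene, and near Mboat1 4 of 4 peaks in 51.2 kb. At Npnt, a matrix protein gene, 5 of 6 peaks in 87.9 kb were higher around dawn. The runs around dusk included 4 of 10 peaks in 37.5 kb at Fmo1 and Fmo2, which encode flavin-containing monooxygenases, and 3 of 3 peaks in 29.2 kb at Mapkapk5 and Aldh2. Outside Npas2 and among peaks with a mean count of at least 100, the leading single peaks of the dawn side were in intron 1 of Sorcs2 (log2 -1.78), intron 8 of Dnajc1 (-1.66), at Triqk (-1.44), Gm11211 (-1.42), Iyd (-1.39) and in intron 1 of Pdzd2 (-1.39). The Pdzd2 peak had 252.9, 203.6 and 230.2 counts around dusk and 643, 619.1 and 538.5 around dawn, with little spread on either side (adjusted p = 0.00266). Fam228a (-1.09), Gpatch2 (-0.96), P2ry14 (-0.99), Tmcc3 (-1.31), Rnf125 (-1.23) and intron 2 of Rgs6 (-1.25) followed by p.

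The clock genes had called peaks on both sides. Of 40 peaks assigned by nearest start site to clock activators (Arntl, Clock, Npas2, Rora), 5 were higher around dawn (12.5%, against 0.241% of all peaks) and 1 around dusk (2.5%, against 0.805%). The 5 were the 3 peaks of Npas2 and 2 of the 12 peaks of Arntl. All 12 Arntl peaks had a log2 difference below 0, from -1.03 to -0.21. Of the 2 called, the stronger lay 43.7 kb beyond the start site, with 315.3, 344.5 and 357.4 counts around dusk and 650.2, 695.2 and 451.3 around dawn (log2 -0.82 ± 0.16, adjusted p = 0.0318). Peaks inside Arntl but nearest to the start of Btbd10 had log2 differences of 0.30 and 0.11 and were not called. The dusk-higher peak of the list was at Rora, in intron 1, with 623.7, 952.2 and 818.8 counts around dusk and 497.9, 446.3 and 387.1 around dawn (log2 0.85 ± 0.15, adjusted p = 0.0264), and was called in 8 of 13 alternative fits. Rora gave 24 of the 40 peaks, of which 20 lay above 0 (median 0.30) and 10 had an unadjusted p below 0.05.

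Among 37 peaks of the clock repressors, 2 were higher around dusk (5.41%, against 0.805% of all peaks) and 0 around dawn. At the start of Ciart, a repressor of BMAL1 and CLOCK, the counts were 1775, 1874 and 1231 at ZT9, ZT12 and ZT15 and 893, 848.4 and 918 at ZT21, ZT0 and ZT3. The dawn libraries were almost level and ZT15 was the lowest of the dusk side (log2 0.88 ± 0.14, adjusted p = 0.0166), and the window held an E-box. In intron 6 of Per2 the counts were 264.7, 354.8 and 360.3 against 209.9, 170.7 and 169.6 (log2 0.83 ± 0.16, adjusted p = 0.0353), a call that held in 7 of 13 alternative fits. The strongest Per2 peak, near the start site, had 3382, 3753 and 3194 against 2603, 2721 and 2457, sides that did not overlap at an adjusted p of 0.0815 by edgeR. It passed under the DESeq2 Wald test (adjusted p = 0.0149), under cyclic loess with limma (0.0489) and without ZT15 (0.0422). All 6 Cry1 peaks had a log2 difference below 0, from -0.80 to -0.09, and none was called by edgeR (smallest adjusted p = 0.106, 2 at an unadjusted p below 0.05), while the DESeq2 Wald test called 1.

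The strongest Nr1d1 peak, at the gene of REV-ERBα, varied as widely within a side as between the libraries at large. It had 9235, 6975 and 4493 counts at ZT9, ZT12 and ZT15 and 4970, 6944 and 9127 at ZT21, ZT0 and ZT3. The counts fell in order from ZT9 to ZT15 and rose in order from ZT21 to ZT3. Both sides thus ran over the same range, and the log2 difference was -0.02 ± 0.24 (adjusted p = 0.984). Such a course cancels between the sides, so this value does not show level binding over the day. The peaks of Dbp (log2 0.36 ± 0.18, adjusted p = 0.463) and Per1 (0.23 ± 0.13, adjusted p = 0.539) also had wide sides, with 5279, 4516 and 3010 counts against 2999, 2914 and 4035 at Dbp. Of the 36 peaks of the D-box factors (Dbp, Tef, Hlf, Nfil3), 2 were higher around dusk (5.56%, against 0.805% of all peaks). At the start of Tef the counts were 1427, 1329 and 1354 against 907.4, 887.5 and 988.9 (log2 0.56 ± 0.10, adjusted p = 0.0195), tight on both sides. The Nfil3 peak, 22.5 kb upstream of its start, differed by log2 0.83 ± 0.16 (adjusted p = 0.0365) and was called in 8 of 13 fits.

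**Figure D5:**
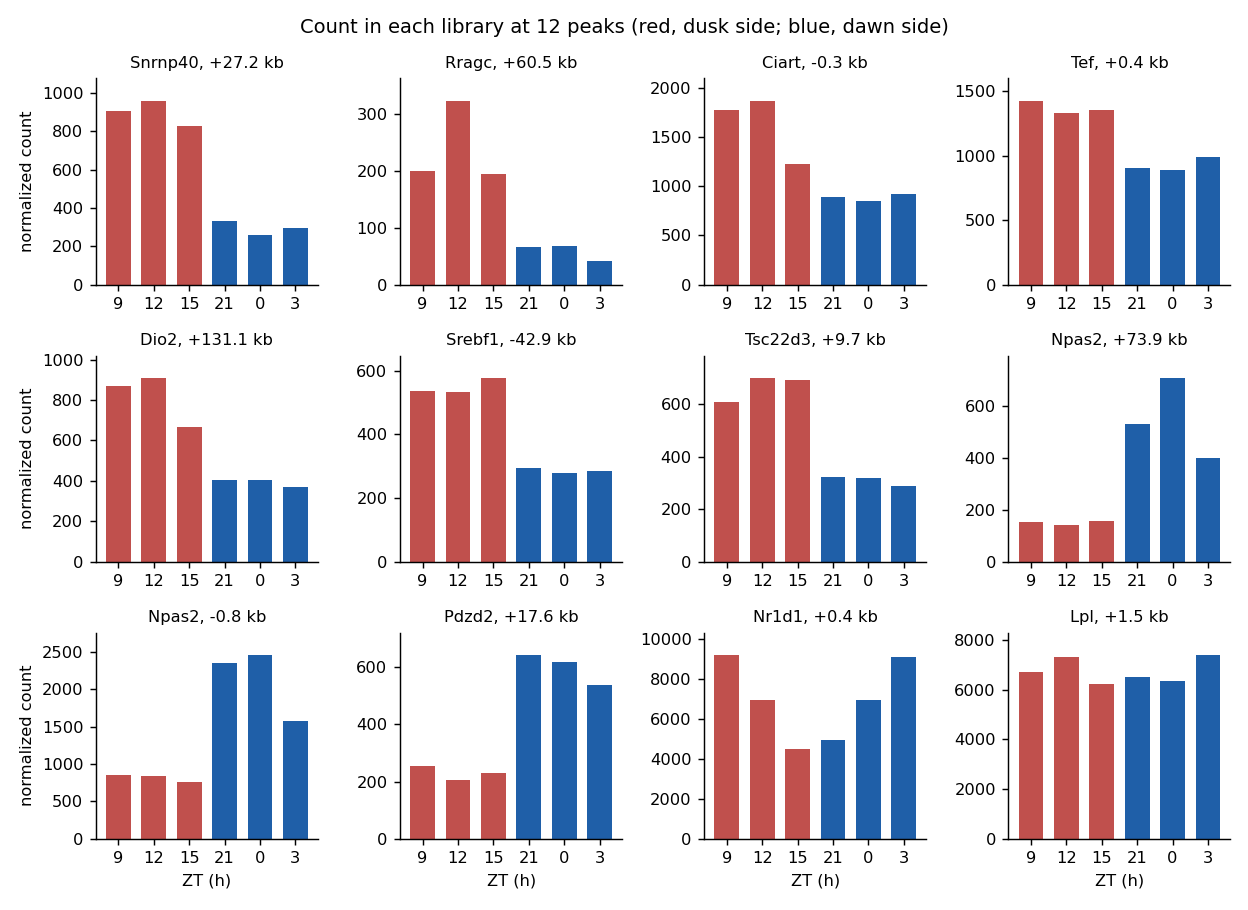
Normalized count in each of the 6 libraries (bars, 1 library each, linear axis from 0) at 12 peaks named by gene and distance from its start site, with the dusk side in red and the dawn side in blue. The sides are apart at 10 of them, while at Nr1d1 (4493 to 9235 counts) and Lpl (6236 to 7415 counts) they overlap.

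The genes of fat metabolism are the best known targets of PPARγ. Of 452 peaks in 7 lists of such genes, 5 were called (1.11%), near the 1.05% of all peaks, and 38 had an unadjusted p below 0.05 (8.41%, against 12.3% of all peaks). In the lipoprotein lipase pathway 0 of 56 peaks were called by edgeR, 0 by the DESeq2 Wald test, and 4 had an unadjusted p below 0.05. The strongest peak of Lpl, which releases fatty acids from circulating triglyceride, had 6698, 7307 and 6236 counts around dusk and 6521, 6351 and 7415 around dawn. The ranges of the sides overlapped over most of their length (log2 -0.00 ± 0.10, adjusted p = 0.994). At Angptl4, the inhibitor of lipoprotein lipase, the log2 difference was -0.08 ± 0.13 (adjusted p = 0.86). A rhythm of binding highest near ZT6 or ZT18 would not be seen at either gene in this comparison. By edgeR, fatty acid uptake and binding had 0 of 57 peaks called, lipid droplets and intracellular lipolysis 0 of 61, and glyceroneogenesis 0 of 34, with 1, 11 and 1 at an unadjusted p below 0.05. The DESeq2 Wald test called 1.97% of all peaks it tested higher around dusk and 0.659% around dawn. In these lists it called 0 peaks of uptake and binding, 1 around dusk and 2 around dawn of lipid droplets and lipolysis, and 1 around dusk of glyceroneogenesis. The median log2 differences of these lists were 0.02, 0.02 and -0.04.

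In triglyceride synthesis 3 of 108 peaks were higher around dusk (2.78%, against 0.805% of all peaks) and 0 around dawn. Of these, 2 were at Lpin1, a phosphatidate phosphatase, and 1 was at Dgat2, which adds the last fatty acid to diacylglycerol. The Dgat2 peak, 19.5 kb upstream, had 1897, 2307 and 1835 counts around dusk and 1233, 994.5 and 1397 around dawn (log2 0.74 ± 0.13, adjusted p = 0.0263). In intron 1 of Lpin1 the counts were 582.1, 663.3 and 606.1 against 411.5, 424.7 and 408.2 (log2 0.57 ± 0.11, adjusted p = 0.0298), and the 2 Lpin1 calls held in 8 and 5 of 13 alternative fits. With the hours from the change of light as a covariate, 0 of the 3 were called. In de novo lipogenesis 1 of 96 peaks was higher around dusk (1.04%, near the 0.805% of all peaks). It lay in intron 4 of Tom1l2, 42.9 kb before the start of Srebf1, the regulator of the pathway, and had 537.4, 532.7 and 577.9 counts around dusk and 295.3, 278.7 and 285.5 around dawn (log2 0.94 ± 0.11, adjusted p = 0.00484). Its window held a D-box, and it was called in all 13 alternative fits. In fatty acid oxidation 1 of 40 peaks was higher around dusk (2.5%, against 0.805% of all peaks). It lay 12 kb before Acadm (log2 1.06 ± 0.23, adjusted p = 0.049), and that call held in 2 of 13 fits.

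Of 164 peaks at genes of brown fat identity and thermogenesis, edgeR called 3 higher around dusk (1.83%, against 0.805% of all peaks) and 0 around dawn. The peak 131 kb beyond the start of Dio2, the deiodinase that makes active thyroid hormone within brown fat, had 867.6, 911.1 and 667.2 counts around dusk and 406.4, 402.1 and 368.9 around dawn. It differed by log2 1.05 ± 0.13 (adjusted p = 0.00484), was called in all 13 alternative fits and held a D-box. The other 2 were assigned to Ppargc1a, a coactivator of PPARγ, from 263 and 430 kb away (log2 1.05 ± 0.18 and 0.65 ± 0.13, adjusted p = 0.0203 and 0.0354), and were called in 10 and 6 of the 13 fits. All 4 peaks of Adrb3 had a log2 difference below 0, from -0.60 to -0.26, with 3 at an unadjusted p below 0.05. None of these passed by edgeR (smallest adjusted p = 0.0719), and the DESeq2 Wald test called 1, its 1 call around dawn in this list. None of the 8 peaks of Ucp1, the uncoupling protein, was called by edgeR or by the DESeq2 Wald test, and 1 had an unadjusted p below 0.05. The strongest had 15922, 9897 and 8005 counts against 9335, 9270 and 12036, and its ZT9 library was the highest of all 6 (log2 0.14 ± 0.21, adjusted p = 0.845). All 33 peaks of Pparg itself had a log2 difference above 0, from 0.00 to 0.70, but none passed the threshold by edgeR (smallest adjusted p = 0.0517, 5 at an unadjusted p below 0.05), and 1 did by the DESeq2 Wald test. The 83 peaks of the PPAR, RXR and C/EBP factors had a median of 0.11, 0 called by edgeR and 8 at an unadjusted p below 0.05. Among the 46 peaks of adipokines and secreted factors 0 were called by edgeR and 8 had an unadjusted p below 0.05, where the shares of all peaks were 1.05% and 12.3%. The DESeq2 Wald test called 1 peak of the former list and 3 of the latter, all higher around dusk, and 2.62% of all peaks it tested. The 3 Adipoq peaks lay between -0.26 and -0.17.

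Of the 80 peaks at glucocorticoid response genes, 3 were higher around dusk (3.75%, against 0.805% of all peaks), and the median log2 difference was 0.20, against -0.01 for all peaks. At an unadjusted p below 0.05 there were 30, of which 19 were at Tsc22d3, where 12.3% of all peaks passed. The 3 were all at Tsc22d3, which encodes the glucocorticoid-induced leucine zipper. In intron 2 the counts were 609.8, 701.3 and 692.5 around dusk and 324.1, 318.8 and 286.5 around dawn (log2 1.11 ± 0.12, adjusted p = 0.00266), with sides far apart. All 24 Tsc22d3 peaks had a log2 difference above 0, from 0.14 to 1.22, as did all 5 peaks of Fkbp5, from 0.24 to 0.74, and all 13 of Zbtb16. None of the Fkbp5 peaks was called by edgeR (4 at an unadjusted p below 0.05) and 1 by the DESeq2 Wald test. At Klf9, Klf15 and Sgk1, 6 of 8, 6 of 7 and 4 of 6 peaks lay above 0 (medians 0.09, 0.08 and 0.12). At Dusp1 6 of 10 peaks lay below 0 (median -0.04), at Mt1 3 of 6, and the only peak of Mt2 was at -0.13. Tsc22d3 alone gave 24 of the 80 peaks, with a median of 0.52. Under the DESeq2 Wald test 14 peaks of this list passed the threshold, 10 of them at Tsc22d3. That test called 1.97% of the peaks it tested higher around dusk and 0.659% around dawn.

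No peak was called in the lists of glucose uptake and insulin signalling (141 peaks), cAMP response (81), heat shock (28), oxidative phosphorylation (29) and extracellular matrix (104), where 1.05% of all peaks were called. Their counts at an unadjusted p below 0.05 were 14, 8, 0, 3 and 16 by the same edgeR test, against 12.3% of all peaks, and their median log2 differences 0.03, -0.06, -0.07, 0.02 and -0.07. The DESeq2 Wald test called 2, 2, 0, 1 and 2 of them, and 2.62% of all peaks it tested. In all of these lists and those above the nearest start site names the gene, and a peak may act on another.

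Peaks were counted at markers of brown adipocytes and of other cell types. In an assay of PPARγ binding, a missing peak does not show that a cell type is missing. These counts therefore do not test the label of the tissue. All 6 brown adipocyte markers had peaks (74 in all, 54 of them at Ppargc1a), whose summed counts ran from 70077 to 87582 over the libraries, against 2 of 6 skeletal muscle markers and 1 of 5 macrophage markers. Of the 74 peaks 2 were higher around dusk (2.7%, against 0.805% of all peaks), both at Ppargc1a. Prdm16, in the list of brown fat identity and thermogenesis, had no peak. The muscle markers Ckm, Myh1, Myh4 and Tnnt3 and the macrophage markers Adgre1, Cd68, Csf1r and Itgam had none. Of muscle, Acta1 and Mylpf had 1 peak each, with log2 differences of -0.47 and -0.21 and summed counts of 1012 to 1568. Neither was called, and that of Acta1 had an unadjusted p below 0.05. Of macrophages, the only peak, at Ptprc, was at 0.42 with counts of 33.5 to 79.3 and was not called. The 4 endothelial markers had 35 peaks with summed counts of 5753 to 8028, of which 1 (2.86%, against 0.241% of all peaks), at Cdh5, was higher around dawn (log2 -0.67 ± 0.14, adjusted p = 0.0446, called in 5 of 13 alternative fits), and all 9 Cdh5 peaks were below 0. So were the 5 of Pecam1, the 3 of Tek and 12 of the 18 of Kdr, with a median over the 35 peaks of -0.10. The part of a changed share of endothelial cells was not tested. Reads in peaks numbered 30361935 to 33872482 a library, and the lowest and the highest library were both on the dawn side. The strongest 10% of peaks took 44.2% to 47.2% of them. Log2 counts correlated between libraries at 0.962 to 0.984 across peaks, and the first principal component (34.7% of the variance) put all dusk libraries above all dawn libraries, with ZT9 nearest to the middle. The second component (26.1%) cut across the sides, with ZT9, ZT12 and ZT3 on one side of 0 and ZT15, ZT21 and ZT0 on the other. ZT9 correlated more closely with ZT3 (0.982), ZT21 (0.978) and ZT0 (0.974), all of the dawn side, than with ZT15 (0.971).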

How the data were processed

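Brown fat chromatin was immunoprecipitated for PPARγ at 8 times of day, with 1 library of pooled tissue for each. The authors aligned reads to mm10 with BWA 0.7.17, called peaks with MACS2 2.1.2 and deposited whole-number counts of reads per peak made with HTSeq 1.99.2 (versions from the submitters' processing notes); the handling of duplicate reads is not given in the sources used here. The input library was not used. The peaks of the table had already passed the authors' own filter, and none was removed here. The 6 columns of the comparison were tested with edgeR 4.0.16 (quasi-likelihood, TMM factors, no filter on low counts, 4 residual degrees of freedom) and Benjamini-Hochberg adjustment over all 66066 peaks, a call being an adjusted p below 0.05, two-sided. SE is the log2 difference divided by the root of the F statistic. Normalized counts are counts divided by the TMM-adjusted library total and multiplied by the mean total. No replicate pools existed, so p-values rest on the spread between neighbouring times, which holds time of day and pool together. Each peak took the gene whose curated RefSeq transcript (GRCm38.p6) starts closest to its centre, which named 66059 of 66066 peaks, and motifs were searched in the central 300 bases. Named peaks were, in each direction, the 10 largest differences among called peaks with a mean count of at least 100 and the 10 lowest p, then up to 4 called peaks for each gene list and the strongest peak of 9 fixed genes. The comparison, the gene lists and the motifs were chosen with earlier results of these data known. Some items withheld from this work are not reported here. Alternatives were run with library totals, DESeq2 size factors, upper-quartile factors, cyclic loess with limma 3.58.1, DESeq2 1.42.0, 2 filters, a covariate, a block, other thresholds and each library left out.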

Additional observations from a re-analysis of the deposited data

How the results depend on the processing

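In the 13 alternative fits that tested other libraries, peaks, scalings or models 0 peaks were called with the opposite sign, and the counts of dusk-higher and dawn-higher peaks stayed within 1.5 times of 532 and 159 under library totals, DESeq2 size factors, upper-quartile factors, cyclic loess, the minimum mean count of 100 and the added 1.5-fold minimum. All 66066 peaks passed filterByExpr, so that filter gave the reported fit again and is no test. The DESeq2 Wald test called 1223 and 410 peaks (984 and 314 genes), among which 528 and 157 were also called by edgeR, and 20.03% of its dusk-higher peaks held a D-box. With the hours from the change of light as a covariate 277 and 90 peaks (264 and 70 genes) were called. At an adjusted p below 0.01 there were 96 and 23, with a D-box in 29.2% of the former and a ROR element in 4.35% of the latter. Leaving out 1 library at a time gave 59 to 545 dusk-higher and 17 to 174 dawn-higher peaks (59 to 484 and 15 to 125 genes), fewest without ZT12, 5 to 12 called peaks in the Npas2 stretch, a D-box in 21.8% to 33.9% of the dusk-higher and a ROR element in 3.85% to 10.3% of the dawn-higher peaks. With 1 library left out the dawn-higher peaks of clock activators numbered 2 to 7, and the dusk-higher peaks 0 to 2 for clock repressors and for D-box factors, 0 to 4 for triglyceride synthesis, 1 to 3 for thermogenesis and 1 to 5 for the glucocorticoid response. The settings for the motif shares and the Npas2 stretch were chosen after seeing the data. Genes with a called peak numbered 478 and 120, or 117 and 26 with the start site within 10 kb of the peak. With up to 2 mismatches DR1 was found in 8.27% of dusk-higher and 13.2% of dawn-higher peaks, against 9.68% of all peaks. Of the 50 named peaks that were called, 27 were called in all 13 fits. Among those not called, 4 had differences near 0 that took either sign as single libraries were left out, from -0.29 to 0.21 at Nr1d1, -0.064 to 0.068 at Lpl, -0.19 to 0.34 at Ucp1 and -0.18 to 0.046 at Angptl4. The cause of these shifts was not tested. The replicate numbers only name libraries, but the times match across the sides by hours from the change of light, and a block on these 3 pairs, added after seeing the data, left 202 and 60 called peaks (193 and 46 genes), with 0 of opposite sign. The deviations of paired libraries from their side's mean correlated at -0.24, 0.02 and -0.23, so these pairs did not vary together, whereas ZT9 with ZT3 (0.29) and ZT15 with ZT21 (0.21) correlated positively. With 1 pool for each time, a difference between pools and one between times cannot be told apart, and peaks of low count need large differences to be called.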

Other observations

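Over whole peaks rather than their central 300 bases, a search added after seeing the data, the D-box occurred 0.42 times per kb in dusk-higher peaks, 0.0304 times in dawn-higher peaks and 0.061 times in all peaks. The ROR element occurred 0.152 times per kb in dawn-higher, 0.00588 in dusk-higher and 0.0145 in all peaks. The related letters TTACGTAA were found in the centre of 7 dusk-higher peaks (1.32%), 0 dawn-higher peaks and 0.223% of all peaks, and the 147 peaks with them had a median log2 difference of 0.17. The highest library of a dusk-higher peak was ZT15 at 258, ZT12 at 216 and ZT9 at 58 of the 532 peaks, and the lowest was ZT3 at 261, ZT0 at 187 and ZT21 at 84. For the 159 dawn-higher peaks the highest was ZT0 at 74, ZT21 at 60 and ZT3 at 25.

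A peak near 4930517M08Rik, singled out after its values were seen, had 4936 counts at ZT21, 745.5 at ZT12 and 51.6 to 113.1 in the other 4 libraries, and was not called (log2 -2.53 ± 1.25, adjusted p = 0.453). A peak in intron 1 of Lep, the gene of leptin, had 1122 counts at ZT9, 307.5 at ZT12 and 399.2 at ZT15 against 221.2, 180 and 155.2 around dawn, and missed the threshold (adjusted p = 0.0609).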
